A study of Mus musculus with 7 samples.

Results

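Neural stem cells (NSC) made from mouse fibroblasts through forced expression of Pou5f1 (Oct4), Sox2, Klf4 and Myc, together OSKM, were compared with mouse embryonic fibroblasts (MEF), gene by gene. A gene entered the comparison where it reached 2 RPKM (the number of reads per kilobase of exon, divided by the library depth in megareads) in MEF, in Tomato-positive OSKM NSC or in Tomato-negative OSKM NSC. That was so for 16630 of the 29686 genes in the data, or 56.0%, and the other 13056 genes stayed below 2 RPKM in these 3 libraries. Each converted library was set against MEF as a log2 ratio with 1 RPKM added to both values. A gene was counted as different where it was at least 4-fold higher, or at least 4-fold lower, than MEF in both converted libraries.

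The MEF library came from strain A12 (Mbd3 flox/-), and its labels name no transgene. Both converted libraries came from B6/129 cells that carry Rosa26-TdTomato, from a B6 female, and Col1a-OSKM, from a 129 male. They were mechanically subcloned neural stem cells kept without MEF feeders. In the reporter system a Nanog-CreER recombinase, active in the presence of 4OHT, switches on tdTomato, so Tomato marks cells that had expressed the pluripotency gene Nanog. Doxycycline drives OSKM, and whether it was still present at harvest is not stated in the labels. Primary brain NSC from BDF2 embryos (their labels differ in the embryonic day), grown with bFGF and EGF, are given beside the converted cells where they help to read a level. The MEF library is not the source of the converted cells, so strain, genotype and the sex of the embryos cannot be told apart from the conversion.

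Neural stem cells of the embryonic brain are bipolar glia-like cells. Transcription factors of the Sox, Olig and bHLH families hold them in a dividing state, neighbouring cells signal to each other through Notch, and Egf and Fgf act as growth factors in culture. Fibroblasts are mesenchymal cells that secrete collagen and other matrix, pull on it with actin bundles, and sense its stiffness through Srf and Yap. A conversion from the fibroblast to the neural stem cell state therefore touches transcription factors, matrix, cytoskeleton, signalling and metabolism, and the results are ordered by these roles.

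Each group was 1 library, so no difference has a replicate error or a test, and the intervals given are 95% exact (Clopper-Pearson) intervals of a ratio of reads that cover counting error only. The depth, inferred from the steps of the values, was 45 megareads in MEF, 19 megareads in the Tomato-positive and 42 megareads in the Tomato-negative library. The MEF library held transcripts of other cells. The 30 listed myeloid genes summed to 8934.5 RPKM in MEF against 72.0 and 17.2 in the converted libraries, and the 22 listed muscle genes to 916.5 against 18.1 and 55.7. It also held Y-linked transcripts, with Eif2s3y at 114 RPKM in MEF and no read in either converted library. The part of these transcripts in the differences below was not tested. In a bulk sample fewer cells of a type and less RNA per cell cannot be told apart.

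Of the 16630 genes, 634 were at least 4-fold higher in both converted libraries than in MEF (3.81%) and 1274 at least 4-fold lower (7.66%). The counting interval lay past 4-fold in both pairs for 582 of the higher and 1190 of the lower genes. Another 7427 genes (44.7%) stayed within 2-fold of MEF in both. The higher genes had a median of 2 RPKM in MEF, 26.8 in the Tomato-positive and 35.7 in the Tomato-negative library, and the lower genes 29.2, 1.28 and 0.485 RPKM. In brain NSC the same genes had medians of 32.3 and 0.210 RPKM. The scale of the libraries matters for the balance of directions. With values rescaled by the median of ratios, 442 genes were higher and 1593 lower, so 21.7% of the counted genes were higher in place of 33.2%. As deposited, the median log2 ratio of all genes was 0.37 in the Tomato-positive and 0.23 in the Tomato-negative library. All 442 higher genes under that scaling were among the 634, and all 1274 lower genes remained. That scaling lowered both ratios, to medians of −0.042 and −0.001, so this nesting follows from the shift. With values scaled to equal totals, 89.6% of the higher and 97.0% of the lower genes were kept.

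The border of the 4-fold rule ran through ordinary genes. The adhesion gene Igsf11 just passed it at 0.243 RPKM in MEF, 3.98 in the Tomato-positive and 8.30 in the Tomato-negative library, and the muscarinic receptor gene Chrm3 just missed it at 0.678, 5.71 and 19.6. On the lower side Tbx5 just passed at 3.33 RPKM in MEF, 0.083 and 0, and Foxf1 just missed at 3.43, 0.109 and 0.039. From here on, 3 values in a row are RPKM in MEF, in the Tomato-positive and in the Tomato-negative library, in that order.

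**Figure D1:**
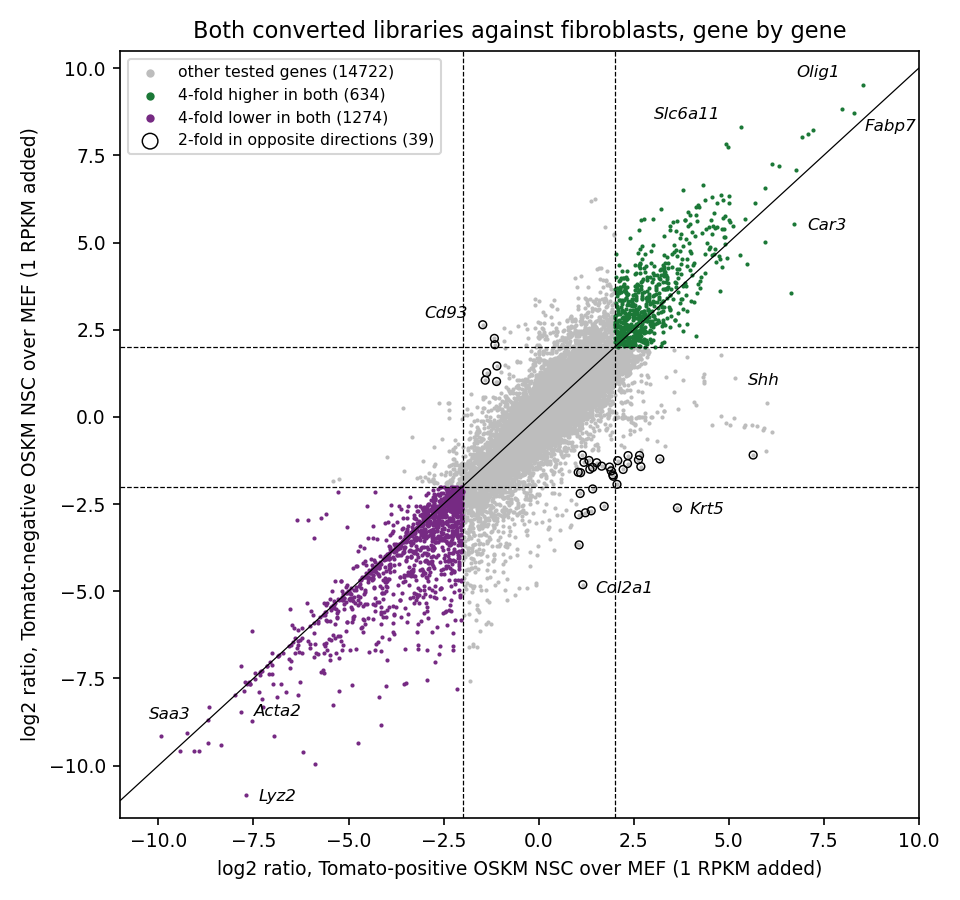
Log2 ratio to MEF, with 1 RPKM added, in Tomato-positive OSKM NSC (horizontal axis) and Tomato-negative OSKM NSC (vertical axis) for the 16630 tested genes. Dashed lines mark 4-fold, the 634 genes higher in both are green, the 1274 lower in both are purple, and the 39 genes past 2-fold in opposite directions are circled.

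Both libraries did not stand equally far from MEF. The ratio nearer to MEF was that of the Tomato-positive library for 443 (69.9%) of the 634 higher genes and for 884 (69.4%) of the 1274 lower genes. The median log2 ratio of the higher genes was 2.72 in the Tomato-positive and 3.14 in the Tomato-negative library, and that of the lower genes −2.97 and −3.59. A further 677 genes were 4-fold lower in the Tomato-negative library only, against 103 in the Tomato-positive library only. On the higher side 524 genes passed in the Tomato-negative and 398 in the Tomato-positive library only. Summed over all genes, the deposited values stood at 1802228 RPKM in the Tomato-positive and 1337021 RPKM in the Tomato-negative library. Later counts of genes that stood higher in the Tomato-positive library use the deposited values and were not rescaled for this difference.

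Gene lists of 48 pathways, families and cell types were counted at 2-fold or more in both pairs. Over all tested genes 17.8% were 2-fold higher and 15.4% 2-fold lower, and the median over genes of the ratio nearer to MEF (0 where the pairs differ in sign) was 0.08. Lists of neural transcription factors, radial glia, serine and glycine metabolism and DNA replication held shares of higher genes between 63.3% and 86.7%. Lists of myeloid, muscle, interferon, cytokine, matrix, antigen presentation, fibroblast transcription factor, contractile and collagen genes held shares of lower genes between 72% and 100%.

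**Figure D2:**
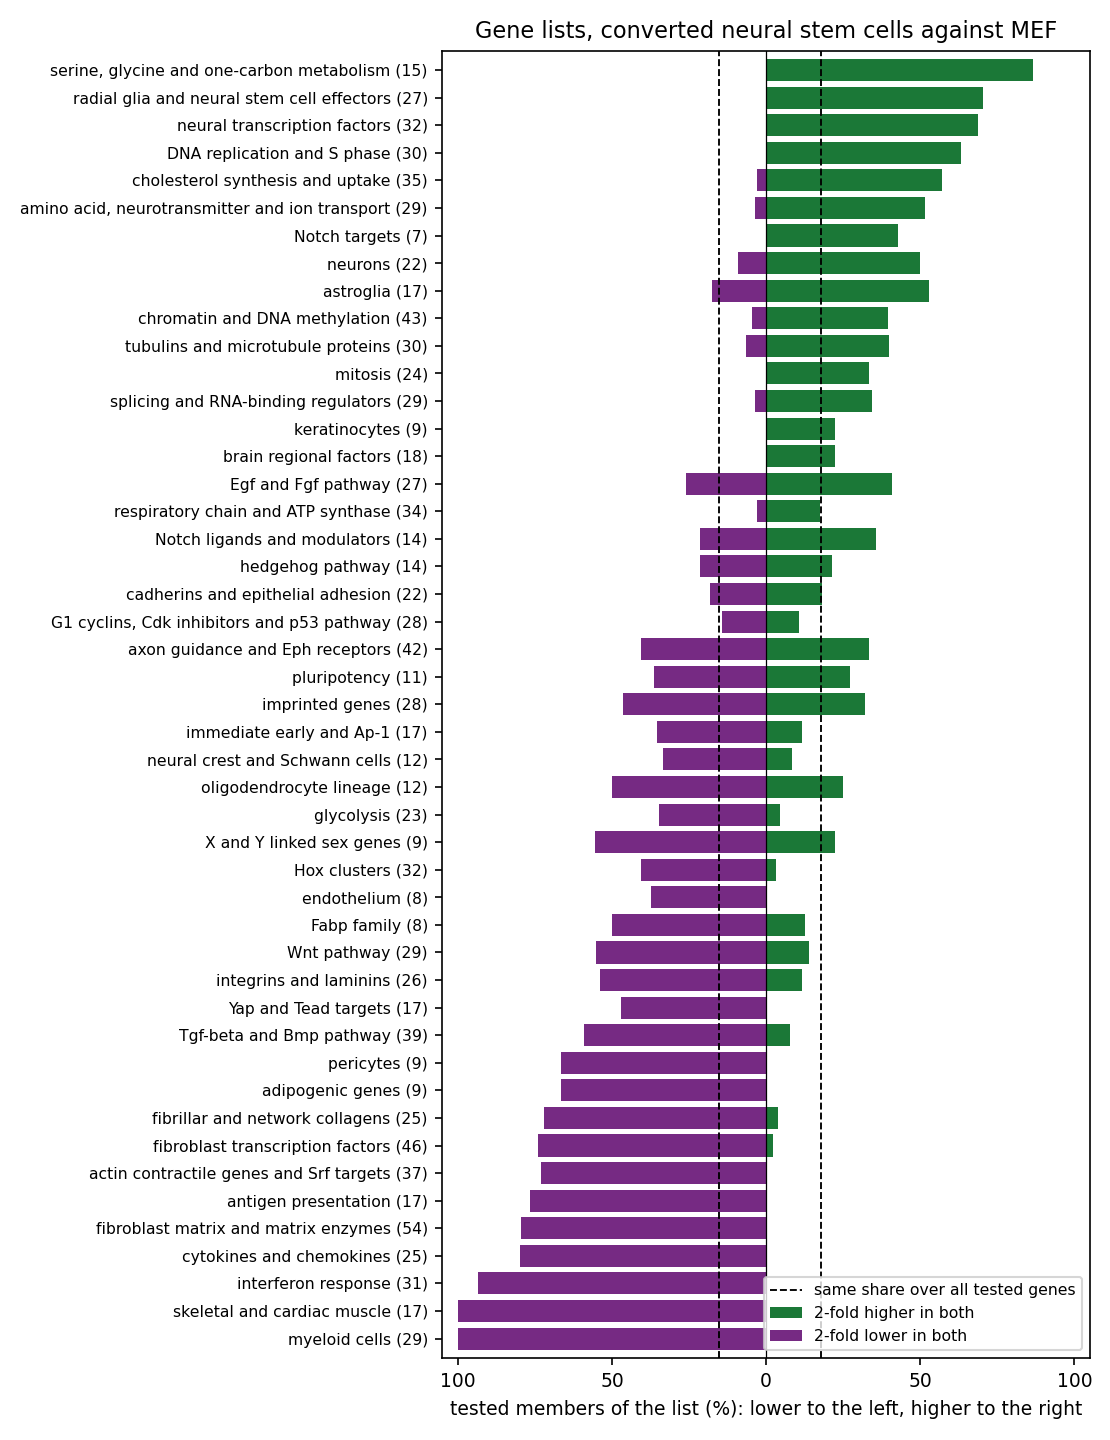
Share of tested members (horizontal axis, percent) past 2-fold above MEF in both converted libraries, drawn to the right, or lower in both, drawn to the left, for all lists except the Notch receptors, of which 3 were tested. Dashed lines give the shares over all tested genes, 17.8% and 15.4%. The serine and glycine list reaches 86.7% to the right and the myeloid and muscle lists 100% to the left.

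The gene with the highest ratio in both pairs was Olig1 (chr16:91269772-91271933), which with Olig2 codes for a pair of bHLH factors of ventral neural progenitors and the oligodendrocyte lineage. Olig1 had no read in MEF and stood at 372 RPKM in the Tomato-positive, 730 in the Tomato-negative and 320 in brain NSC. Against the 3 reads that a count of 0 allows, it was at least 12100-fold higher in the Tomato-positive and at least 23700-fold higher in the Tomato-negative library. Its neighbour Olig2 (chr16:91225457-91228677) stood at 0.0508, 262 and 474, with read-ratio intervals of 3812 to 113736 and 6851 to 204379. Both genes were near 0 in MEF and high in both converted libraries.

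Of 32 neural transcription factors tested, 22 were 2-fold higher in both (17 of them 4-fold), 0 were lower and 10 were neither. The median of the nearer log2 ratio was 2.49. The Sox family, which includes the factors that keep progenitors undifferentiated (SoxB1) and those of glial cells (SoxE, SoxD), was higher in 8 of its 9 tested members on this list. Sox2 stood at 2.92, 116 and 120 RPKM, and its level takes the endogenous gene and the OSKM transgene together. The other SoxB genes, which are not part of OSKM, were Sox1 at 0.0276, 8.15 and 8.02, Sox3 at 0.259, 15.6 and 43.1, and Sox21 at 0.228, 24.5 and 30.5. Among glial Sox genes, Sox8 stood at 0.891, 64.7 and 82.6, with intervals of 56.0 to 80.9 and 71.3 to 103, and Sox9 at 3.87, 27.4 and 34.1. Sox10, a gene of neural crest and oligodendrocyte cells, stood at 7.54, 5.45 and 4.55 and was the Sox gene of the list that was not higher.

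Rfx4, a factor that directs the formation of cilia in the neural tube, stood at 0.418, 112 and 208 RPKM, with intervals of 260 to 423 and 488 to 794. The POU factors of neural progenitors were higher as a group, with Pou3f4 at 1.43, 28.7 and 33.4, Pou3f3 at 6.503, 50.5 and 57.9, and Pou3f2 at 0.468, 8.74 and 10.7. Npas3, a bHLH-PAS factor, stood at 1.24, 32.8 and 50.7. These values lay within a factor of a few between the converted libraries.

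Other neural factors separated the converted libraries. Nr2e1, the nuclear receptor Tlx that sustains adult neural stem cells, stood at 0.291 RPKM in MEF, 0.0724 in the Tomato-positive and 5.17 in the Tomato-negative library, with 19.6 in brain NSC. The LIM homeobox gene Lhx2 stood at 2.60, 0.9499 and 13.1, and Zbtb20 at 1.90, 1.73 and 9.21. Pax6, a master factor of dorsal forebrain progenitors, stood at 2.36, 6.92 and 14.7. Of the 32 factors, 26 had the ratio nearer to MEF in the Tomato-positive library, and 4 passed 4-fold in the Tomato-negative library only.

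The products of radial glia followed the factors. Of 27 radial glia and neural stem cell effectors, 19 were 2-fold higher in both, 0 lower and 8 neither. Fabp7, the brain lipid-binding protein that marks radial glia, was the most abundant of them at 19.6, 6511 and 8761.5 RPKM (brain NSC 2394), with intervals of 312 to 356 and 420 to 478. It lies on chromosome 10 (chr10:57784881-57788450). The proteoglycans of neural tissue were Ptprz1 at 21.7, 249 and 935, Bcan at 1.20, 65.8 and 496, and Cspg5 at 1.44, 18.7 and 124. Each of the 3 stood higher in the Tomato-negative than in the Tomato-positive library.

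Nes, which codes for the intermediate filament nestin, stood at 22.8, 225 and 451, with intervals of 9.62 to 10.2 and 19.4 to 20.4. The membrane glycoprotein genes Gpm6a and Gpm6b stood at 18.8, 131 and 205 and at 23.04, 233 and 493. Mt3, a brain metallothionein, stood at 17.2, 322 and 1170.1, and the RNA-binding regulator Msi2 at 12.3, 64.2 and 83.5. Vim, whose intermediate filament vimentin occurs in fibroblasts and radial glia alike, stood at 3595, 2637 and 1718. So this gene, often used for neural stem cells, did not separate them from this MEF culture. Metrn, a secreted glial factor, stood at 36.9, 558 and 430, but part of its value rests on exons shared with a neighbour, and over its unshared exons it stood at 2.69, 103 and 58.2.

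Of 17 astroglial genes tested, 9 were higher in both and 3 lower. Acsbg1, a lipid-metabolic enzyme of astroglia, stood at 0.493, 222 and 444 RPKM, with intervals of 320 to 499 and 634 to 987. Sparcl1, a secreted synapse-forming protein, stood at 45.3, 450 and 679, and the Fgf receptor gene Fgfr3 at 4.68, 54.6 and 49.6. Gfap, the filament of mature astrocytes, stood at 4.05, 1.21 and 6.45, and Aqp4, their water channel, at 0.547, 0.768 and 6.71. Apoe, which astroglia and macrophages both secrete, was lower in both at 1107, 19.8 and 147, while brain NSC had 916. Intervals of the ratio of MEF to converted for Apoe were 48.0 to 56.6 and 7.22 to 7.54. The level of Apoe in MEF stood beside the myeloid genes, and their part in it was not tested.

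Transporters of amino acids, neurotransmitters and ions gave some of the widest gaps. Of 29 tested, 15 were higher in both and 1 lower, and beside the 8 genes past 4-fold in both, another 8 passed it in the Tomato-negative library only. The GABA transporter gene Slc6a11 stood at 0.0272, 40.4 and 323 RPKM, with intervals of 465 to 6606 and 3832 to 54308, and 792 in brain NSC. The glutamate transporter gene Slc1a3 (Glast) stood at 16.2, 232 and 650, with intervals of 13.7 to 14.8 and 38.5 to 41.3. The other glial glutamate transporter, Slc1a2 (Glt-1), stood at 0.350, 1.92 and 21.4. Of the 29 genes, 23 had the ratio nearer to MEF in the Tomato-positive library.

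Receptors and channels of the same list showed the same order. The metabotropic glutamate receptor gene Grm5 stood at 0.0174, 23.1 and 79.5, and the AMPA receptor gene Gria4 at 1.22, 10.7 and 76.1. Slc38a3, a glutamine transporter, stood at 0.963, 42.5 and 84.8. Kcnj10, a potassium channel of astroglia, stood at 0.279, 4.33 and 13.3.

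Besides these list members, the 12 protein-coding genes with the highest ratios included genes of metabolism and secretion. Rab3b, a small GTPase of secretory vesicles, stood at 1.04, 278 and 568 RPKM (brain NSC 34.3), with intervals of 231 to 345 and 476 to 710. Slc25a18, a mitochondrial glutamate carrier, stood at 1.44, 172 and 367. Timp4, a metalloproteinase inhibitor, stood at 0.218, 73.9 and 113. In the same group were the carbonic anhydrase gene Car3 at 1.77, 292 and 127, and the floor plate matrix gene Spon1 at 1.35, 100 and 118.5. Wscd1 completed it at 0.580, 80.8 and 109. Car3 was the only one of the 12 that was higher in the Tomato-positive than in the Tomato-negative library, and brain NSC had 10.9.

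Genes of differentiated neural cells were more divided. Of 22 neuron genes, 11 were higher in both and 2 lower, with a median nearer ratio of 1.03. The 11 were 4 with a pseudocount of 4 RPKM and 4 with a floor of 8 RPKM. The microtubule protein gene Map2, present in neurons and glial precursors, stood at 12.7, 144 and 292 RPKM. Gap43, of growth cones, stood at 64.5, 585 and 432. Markers of mature neurons were among the 11 at low levels, with Rbfox3 (NeuN) at 0.215, 1.82 and 3.42, Syn1 at 1.83, 5.21 and 5.49, and Snap25 at 1.32, 7.85 and 4.23. The neuronal stathmin Stmn2 was lower, at 97.6, 27.6 and 5.75.

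Of 12 oligodendrocyte lineage genes, 3 were higher in both and 6 lower. The higher ones were Bcas1, of newly forming oligodendrocytes, at 0.374, 34.6 and 96.2 RPKM, the progenitor homeobox gene Nkx2-2 at 0, 8.78 and 15.6, and the myelin lipid enzyme Ugt8a at 0.286, 2.67 and 3.77. Nkx2-2 was at least 332-fold and at least 589-fold higher than the 3-read limit in MEF. Myelin genes did not share this direction, with Mbp at 5.44, 1.18 and 0.767 and Cldn11, a tight junction protein of myelin, at 13.1, 5.12 and 0.888. Pdgfra, a receptor of both oligodendrocyte precursors and fibroblasts, stood at 80.8, 26.7 and 12.48.

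Regional factors of the brain gave a weak and scale-dependent pattern. Of 18 tested, 4 were higher in both, 0 lower and 14 neither, and with median-of-ratios scaling 2 were higher and 3 lower. The 4 were the midbrain and hindbrain genes Gbx2 at 2.01, 9.62 and 21.9 and En2 at 0.110, 2.65 and 7.04, the forebrain and midbrain gene Otx2 at 0.969, 3.65 and 3.43, and Meis1 at 17.9, 41.7 and 37.5. The forebrain factor Emx2 stood at 11.2, 1.53 and 5.33. Genes that mark different regions were thus present side by side at low levels.

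Notch signalling, in which a ligand on a cell activates a receptor on its neighbour and Hes and Hey repressors respond, was examined by role. Of 14 ligands and modulators, 5 were higher in both and 3 lower. Dll1, the ligand of neural progenitors, stood at 0.825, 17.8 and 42.7 RPKM, with intervals of 18.0 to 26.01 and 43.6 to 61.9, and Dll3 at 0.263, 6.61 and 9.24. Lfng, the fringe enzyme that tunes receptors toward Delta ligands, stood at 12.7, 164 and 200. The non-canonical ligand Dlk1 was lower at 283, 58.7 and 2.84, and the Jagged genes were not 2-fold different in both, with Jag1 at 49.0, 37.1 and 20.0.

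Of 3 tested receptors only Notch1 was higher, at 13.2, 59.2 and 67.8 RPKM, with intervals of 4.31 to 4.60 and 4.98 to 5.27. Notch2 stood at 16.2, 15.7 and 16.4, and Notch3 at 39.5, 34.6 and 51.0. Of 7 targets, 3 were higher: Hes5, the main neural target, at 0.157, 6.16 and 22.5, Hey1 at 4.57, 39.0 and 36.4, and the feedback gene Nrarp at 1.11, 9.31 and 14.2. Over exons that share no base with another gene, 1 target was higher in place of 3. Hes1, which fibroblasts also express, stood at 55.1, 38.8 and 42.9. The core of the site bound by Rbpj, spelled TGGGAA and searched on either strand, was found in the promoter window of 3 of 4 of these targets with a RefSeq promoter (75%), against 23.2% of all tested promoters. The list was chosen as Notch targets, so its share is not independent of that choice, and 4 promoters are few. The same letters were found in 40.9% of the promoters of the interferon response list.

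Among hedgehog genes, Shh and Gli1 separated the converted libraries. The ligand gene Shh stood at 0.0896 RPKM in MEF, 38.3 in the Tomato-positive and 1.34 in the Tomato-negative library, with intervals of 191 to 798 and 5.53 to 24.7 and no read in brain NSC. Its target Gli1 stood at 0.686, 8.05 and 0.512. It was thus high in the library with the high ligand level. The receptor and target gene Ptch1 did not follow this order and stood at 4.88, 54.3 and 51.4, with intervals of 11.0 to 12.8 in the Tomato-positive library. The co-receptor genes Boc and Gas1 were lower in both, at 44.9, 12.2 and 12.4 and at 65.3, 29.4 and 24.2. Of 14 pathway genes, 3 were higher in both and 3 lower (21.4% each, against 17.8% and 15.4% of all tested genes). The Tomato-positive value was above the Tomato-negative one in 7 of the 14.

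Egf and Fgf signalling runs through Erk, which induces its own Spry, Spred and Dusp inhibitors and Etv factors. Of 27 genes, 11 were higher in both and 7 lower. All 3 tested Etv factors were higher, with Etv5 at 26.6, 151 and 248 RPKM, Etv4 at 20.96, 114 and 157, and Etv1 at 3.88, 34.4 and 52.2. The inhibitors Spry2 and Dusp6 stood at 31.1, 148 and 212 and at 40.3, 200 and 259. Among ligands, Fgf7 and Fgf9 were lower, with Fgf7 at 24.8, 1.32 and 0.108 and Fgf9 at 8.04, 0.184 and 0.0812, while Fgf1 was higher at 0.777, 18.6 and 19.01. Among receptors, Fgfr3 was higher, Fgfr2 was lower at 38.1, 11.9 and 16.7, and Fgfr1 stood at 114, 131 and 137. Egfr itself stood at 42.0, 24.0 and 100.

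Metabolic genes were compared next. Serine, glycine and one-carbon metabolism, which makes glycine and carbon units for nucleotide synthesis, had the highest share of higher genes of any list with 7 or more tested members, 13 of 15 (86.7%), with 0 lower. Gldc, the decarboxylase of the glycine cleavage system, stood at 2.87, 95.1 and 107 RPKM, with intervals of 32.5 to 40.0 and 36.8 to 45.0. Phgdh, the first enzyme of serine synthesis, stood at 57.9, 235 and 260, with intervals of 3.89 to 4.18 and 4.32 to 4.59. Shmt1 stood at 5.99, 71.8 and 49.3, and Mthfd1 at 30.8, 154 and 164. With median-of-ratios scaling 10 of the 15 were higher. The summed level of the 15 genes was 625.7 RPKM in MEF, 2087 and 2189 in the converted libraries and 1872 in brain NSC.

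Of 35 genes of cholesterol and fatty acid synthesis and uptake, 20 were higher in both and 1 lower, and 14 were higher with median-of-ratios scaling. Hmgcs1, which makes the precursor of mevalonate, stood at 201, 897 and 874 RPKM and the desaturase gene Scd2 at 414, 1781 and 2540. Insig1, which holds back sterol synthesis when sterols are plentiful, stood at 45.5, 207 and 179, and the fatty acid synthase gene Fasn at 55.0, 181 and 257.

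Of 23 glycolysis genes, 8 were lower in both and 1 higher. The glucose transporter gene Slc2a1 stood at 420, 99.3 and 78.8 RPKM, the lactate exporter Slc16a3 at 231, 31.7 and 11.9, and the enolase isoform Eno2 at 49.3, 5.73 and 5.20. Aldolase isoforms were exchanged in part, with Aldoc, the brain form, at 42.8, 267 and 282 and Aldoa at 3401, 1653 and 1054. The pyruvate kinase gene Pkm stood at 1033, 1308 and 969. Brain NSC had Slc2a1 at 161 and Eno2 at 88.8 RPKM.

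Among 34 genes of the respiratory chain and ATP synthase, 27 stayed within the 2-fold rule, 6 were higher and 1 was lower, close to the background for higher genes. Cycs, cytochrome c, stood at 20.0, 125 and 102 RPKM, and the ATP synthase subunit gene Atp5b at 1176, 2941 and 2827. Cox4i2, the oxygen-regulated isoform of a cytochrome oxidase subunit, was lower at 198, 2.31 and 0.696, whereas the common isoform Cox4i1 stood at 1249, 1343 and 1399.6.

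Cell cycle genes were compared by phase. Of 30 genes of DNA replication and S phase, 19 were higher in both and 0 lower, and beside the 4 genes past 4-fold in both, 13 passed it in the Tomato-positive library only. The replicative helicase gene Mcm2 stood at 27.1, 178 and 115 RPKM, with intervals of 6.53 to 7.06 and 4.23 to 4.56. The sliding clamp gene Pcna stood at 49.0, 313 and 196, and the polymerase genes Pola1 and Pole at 6.85, 44.8 and 45.1 and at 5.22, 34.9 and 34.0. In 29 of the 30 genes the Tomato-positive value, as deposited, was above the Tomato-negative one. In brain NSC the 30 genes summed to 1043 RPKM against 1009 in MEF, 4018 in the Tomato-positive and 2569 in the Tomato-negative library.

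Mitosis genes gave a smaller gap, with 8 of 24 higher in both and 0 lower. Mki67, the proliferation antigen, stood at 41.9, 116 and 126 RPKM, and the spindle motor gene Kif11 at 23.6, 116 and 99.4. Under median-of-ratios scaling 3 of the 24 and 16 of the 30 S-phase genes were higher. The D-type cyclins that start the cycle were exchanged, with Ccnd1 at 66.0, 334 and 876 and Ccnd2 at 109, 339 and 716, against Ccnd3 at 320, 106 and 60.5. Intervals for Ccnd1 were 4.95 to 5.17 and 13.02 to 13.53. Of 28 genes of G1 control and the p53 pathway, 3 were higher in both and 4 lower, and the inhibitor gene Cdkn1a stood at 438, 282 and 346.

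Chromatin regulators were higher in 17 of 43 members and lower in 2, with a median nearer ratio of 0.74. Subunits of the BAF remodeler that are typical of neural cells were among them, with Dpf1 at 3.67, 42.9 and 41.8 RPKM and Dpf3 at 0.101, 6.04 and 18.2, as was the remodeler Chd7 at 2.25, 17.7 and 36.3. Hdac1, a histone deacetylase of NuRD and other complexes, stood at 9.56, 73.6 and 47.7, with intervals of 7.13 to 8.31 and 4.63 to 5.37. Mbd3, a NuRD subunit that is mutated (flox/-) in the MEF strain, stood at 65.3, 271 and 206, with intervals of 4.05 to 4.34 and 3.10 to 3.30, and its genotype cannot be told apart from cell type here. Hmga2, an architectural protein of undifferentiated cells, stood at 75.8, 157 and 24.5 and was thus higher than MEF in one and lower in the other library. Among 29 splicing regulators 10 were higher and 1 lower, with Qk at 33.1, 161 and 271 and Nova2 at 0.758, 6.63 and 10.9, against Mbnl2 at 126, 37.9 and 42.2.

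The contractile apparatus of fibroblasts was examined next. Of 37 actin contractile genes and Srf targets, 27 were lower in both, 19 of them 4-fold, and 0 were higher. Many of these genes carry a CArG box, the site bound by serum response factor (Srf), close to their start. In the RefSeq promoters (GRCm38.p6) that run from 250 bases before to 50 after the start, a CArG box on either strand was found in 8 of 32 genes of this list with a promoter (25%), against 1.43% of 11045 tested promoters. The list was chosen to hold Srf targets, so its share is not independent of that choice. Stretches of 6 of the 8 genes are shown because they let the box be read beside the level. They are written 5′ to 3′ on the gene's strand with the CArG box in capitals.
Acta1: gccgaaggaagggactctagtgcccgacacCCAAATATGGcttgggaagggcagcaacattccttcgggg
Actc1: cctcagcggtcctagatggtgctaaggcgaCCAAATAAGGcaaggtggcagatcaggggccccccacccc
Myl9: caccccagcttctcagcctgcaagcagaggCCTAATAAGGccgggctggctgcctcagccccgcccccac
Cnn2: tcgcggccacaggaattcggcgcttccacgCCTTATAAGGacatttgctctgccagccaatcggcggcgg
Vcl: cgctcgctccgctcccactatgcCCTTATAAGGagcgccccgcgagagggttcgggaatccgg
Actg1: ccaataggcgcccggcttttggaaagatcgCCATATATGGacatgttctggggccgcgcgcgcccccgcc

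The stretches lie at chr8:123894809-123894878 on the minus strand (Acta1), chr2:114052883-114052952 minus (Actc1), chr2:156775273-156775342 plus (Myl9), chr10:79988514-79988583 plus (Cnn2), chr14:20929148-20929210 plus (Vcl) and chr11:120348546-120348615 minus (Actg1). The box ended 63 bases before the start in Acta1, 37 in Actc1, 151 in Myl9, 46 in Cnn2, 217 in Vcl and 80 in Actg1. The genes that hold it did not share a size of difference. The skeletal and cardiac actin genes Acta1 and Actc1 stood at 122, 0.291 and 0 and at 89.4, 1.19 and 2.48 RPKM, and the myosin light chain gene Myl9 at 1240, 18.5 and 25.3. Cnn2 (calponin) stood at 1026, 130 and 91.2 and Vcl (vinculin) at 505, 66.0 and 56.9. The cytoplasmic actin gene Actg1, with a box of the same kind, stood at 3390.3, 2349 and 2309 and was not 2-fold different. A match is a match of letters and says nothing of binding in these cells.

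Smooth muscle genes that myofibroblasts use were among the lower ones. Acta2 (chr19:34241090-34255590), the smooth muscle actin, stood at 7058, 30.1 and 18.9 RPKM, with an interval of 224 to 254 for the ratio of MEF to the Tomato-positive library. Actg2 stood at 703, 0.704 and 0.0746, with intervals of 633 to 1563 and 3849 to 27663, and Tagln at 3649, 35.7 and 14.3, with intervals of 94.5 to 110 and 246 to 290. Each stood far below MEF in both libraries. Srf itself stood at 37.0, 29.9 and 28.6, and its coactivator genes Mrtfa and Mrtfb at 40.8, 10.2 and 13.9 and at 8.16, 12.6 and 21.4. The level of the Srf gene was close to that in MEF. Of its coactivator genes, Mrtfa was lower and Mrtfb higher than MEF in both converted libraries, and their part in the lower levels of the list was not tested. In the list, which holds actin contractile genes as well as Srf targets, 27 of 37 genes were lower in both.

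Yap and Tead targets, induced in cells under tension, were lower in 8 of 17 and higher in 0. Ankrd1 stood at 109, 0.473 and 0 RPKM, with an interval of 160 to 514 against the Tomato-positive library, and Ccn1 at 998, 30.9 and 8.63, with intervals of 30.6 to 36.1 and 104.9 to 129. Ccn2 stood at 380, 125 and 7.15. The regulators showed no such gap, with Yap1 at 89.1, 94.3 and 83.1 and Tead1 at 44.9, 42.7 and 58.5. The Tead motif GGAATG, on either strand, was found in 11 of 13 promoters of the list (84.6%), against 12.2% of all tested promoters. The list was chosen as Yap and Tead targets, so its share is not independent of that choice.

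Collagen genes were lower in 18 of 25 members and higher in 1. Col1a1 (chr11:94936224-94953042) and Col1a2, which code for the chains of collagen I, stood at 9085, 123 and 10.7 RPKM and at 10202, 171 and 9.37. Their intervals for MEF to converted were 72.9 to 75.3 and 816 to 881 for Col1a1 and 57.9 to 59.7 and 1015 to 1107 for Col1a2. Col3a1, the partner collagen of soft tissue, stood at 4949, 810 and 43.7. The library with the Tomato label thus held more collagen RNA in 23 of the 25 genes. Summed, the 25 genes stood at 32596, 3309 and 407 RPKM, and at 259 in brain NSC. Cartilage collagens went apart, with Col2a1 at 119, 268 and 3.27 and Col9a1 at 14.8, 32.0 and 0.238, and the one higher gene was Col9a3 at 15.6, 37.4 and 69.8.

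Other matrix proteins and enzymes were lower in 43 of 54 members, 29 of them 4-fold, and higher in 0. Lox, which crosslinks collagen and elastin, stood at 1047, 7.45 and 0.838 RPKM, with intervals of 134 to 156 and 1092 to 1498. Eln (elastin) stood at 1548, 7.39 and 21.1, the fibril-associated proteoglycan gene Bgn at 4729.9, 268 and 9.38, and Fn1 (fibronectin) at 2582, 338 and 24.2. Thy1, a surface protein of fibroblasts, stood at 583, 89.3 and 15.0. A further 20 genes were 4-fold lower in the Tomato-negative library only. Among these were Dcn (decorin) at 374, 317 and 18.4 and Lum (lumican) at 154, 151 and 9.01, with intervals for Lum of 0.984 to 1.04 and 15.8 to 18.1. In 48 of the 54 genes the Tomato-positive value was above the Tomato-negative one, so part of the fibroblast matrix programme was at MEF-like levels in one converted library and not in the other.

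Transcription factors of mesenchyme were lower in 34 of 46 members and higher in 1. Tcf21 had 11.4 RPKM in MEF and no read in either converted library, which makes it at least 91.8-fold and at least 203-fold lower. Hand2, of limb and heart mesenchyme, stood at 21.4, 0.0448 and 0, Osr1 at 40.7, 1.20 and 0.0474, and Prrx1, of limb mesenchyme, at 111, 10.7 and 3.74. Factors of the epithelial to mesenchymal transition were split. Snai2 stood at 42.9, 2.62 and 0.328 and Twist1 at 87.5, 22.3 and 4.42, with intervals for Twist1 of 3.39 to 4.73 and 16.4 to 27.04. Zeb1 was the gene that was higher, at 19.5, 98.9 and 255 (brain NSC 318), with intervals of 4.78 to 5.11 and 12.4 to 13.1, and Zeb2 stood at 22.9, 12.7 and 18.0. Beside the 24 factors 4-fold lower in both, 13 were so in the Tomato-negative library only.

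Tgf-beta and Bmp signalling was lower in 23 of 39 genes and higher in 3. Ltbp2, which stores latent Tgf-beta in the matrix, stood at 96.3, 0.202 and 0.0530 RPKM, with intervals of 374 to 904 and 1239 to 3982. The ligands Bmp4 and Tgfb3 stood at 211, 3.27 and 0.316 and at 406, 13.7 and 3.05. Bmp4 had intervals of 51.5 to 73.3 and 435 to 946. Inhibitors were lower too, with Fst at 98.1, 3.72 and 2.89 and Grem1 at 29.3, 1.85 and 0.0689. In the other direction Bmp7 stood at 1.92, 33.4 and 88.7, with intervals of 15.5 to 19.6 and 41.3 to 51.8, and the receptor gene Bmpr1b at 0.956, 6.52 and 21.7. The Id genes, immediate Bmp targets, were not 2-fold different in both pairs, with Id3 at 368, 308 and 158 and Id1 at 78.2, 101 and 24.6.

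Wnt genes were lower in 16 of 29 and higher in 4. Among the lower genes were the secreted agonist Rspo2 at 31.3, 0.570 and 0.315 RPKM, Dkk2 at 57.8, 2.63 and 0.0903 and Sfrp1 at 173, 19.7 and 10.1. The 4 higher genes were 2 ligands and 2 receptors. Wnt7a stood at 0.420, 21.5 and 25.5, with intervals of 39.5 to 67.4 and 47.1 to 79.8, Wnt7b at 0.412, 5.07 and 15.4, and the receptors Fzd3 and Fzd9 at 0.797, 16.7 and 43.7 and at 0.611, 10.47 and 16.1. The target Axin2 stood at 7.67, 8.99 and 21.05.

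Receptors for the matrix were lower in 14 of 26 integrin and laminin genes and higher in 3. Itga11, a collagen receptor of fibroblasts, stood at 114, 1.62 and 0.369 RPKM, and Itga5, the fibronectin receptor subunit, at 262, 64.6 and 29.9. The 3 higher genes serve laminin contact or neural tissue: Itga6 at 21.5, 84.0 and 133, Itgb8 at 2.43, 15.2 and 52.8, and the laminin chain Lama1 at 2.74, 16.7 and 15.6. Among 22 cadherins and epithelial adhesion genes, 4 were higher in both and 4 lower. These shares, 18.2% each, were close to the 17.8% and 15.4% of all tested genes, so single members are given. Cdh20 stood at 0.183, 31.9 and 96.4, with intervals of 124 to 254 and 375 to 766, and Cdh4 at 0.772, 30.4 and 97.6, whereas Cdh3 stood at 111, 0.333 and 0.0217. The N-cadherin gene Cdh2 stood at 58.9, 141 and 105.5, and the E-cadherin gene Cdh1 at 4.46, 2.19 and 0.791.

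Guidance molecules of axons divided nearly evenly, with 14 of 42 higher in both and 17 lower. Among secreted repellents, Slit2 and Slit3 were lower, with Slit2 at 111, 25.6 and 2.23 RPKM and Slit3 at 117, 13.7 and 1.38, while Slit1 stood at 0.724, 24.9 and 4.72. Netrin-1 (Ntn1) was higher at 4.12, 75.0 and 41.1, and so were its receptor gene Dcc at 0.146, 5.71 and 9.50 and the adhesion gene Chl1 at 2.73, 62.2 and 78.6. Among receptors of the Eph family, Ephb1 stood at 0.340, 12.6 and 21.6 and Epha3 at 17.6, 4.66 and 0.458. Tubulins and microtubule proteins were higher in 12 of 30 and lower in 2, led by Map2, Dclk2 at 8.89, 87.2 and 155, and the neural tubulin Tubb2b at 251, 1633 and 1269.7.

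Interferon response genes had the highest share of lower members outside the myeloid and muscle lists, 29 of 31 (93.5%), with 0 higher. Their promoters often hold the interferon-stimulated response element, here searched as GAAANNGAAA on either strand. It was found in 12 of 22 promoters of the list (54.5%), against 3.08% of all tested promoters. The share was 2.38% for the 634 higher genes and 7.36% for the 1274 lower genes. The list was chosen as interferon response genes, so its share is not independent of that choice. Stretches of 5 genes that were at least 4-fold lower in both are shown beside that of Gbp3, which holds the element and was not lower in both, with each element in capitals and the stretch written on the gene's strand.
Isg15: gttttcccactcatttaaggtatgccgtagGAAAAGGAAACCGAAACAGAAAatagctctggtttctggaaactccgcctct
Ifit1: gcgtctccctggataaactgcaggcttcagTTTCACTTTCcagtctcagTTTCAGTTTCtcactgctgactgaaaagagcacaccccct
Ifit3: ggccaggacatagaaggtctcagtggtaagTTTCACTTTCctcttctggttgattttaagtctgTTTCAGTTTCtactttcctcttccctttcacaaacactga
Oas1a: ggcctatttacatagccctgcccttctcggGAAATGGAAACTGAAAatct
Gbp3: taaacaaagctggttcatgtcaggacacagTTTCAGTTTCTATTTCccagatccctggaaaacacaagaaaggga
Bst2: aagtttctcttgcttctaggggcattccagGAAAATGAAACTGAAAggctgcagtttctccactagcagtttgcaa

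They lie at chr4:156200845-156200926 minus (Isg15), chr19:34640755-34640843 plus (Ifit1), chr19:34583343-34583446 plus (Ifit3), chr5:120907526-120907575 minus (Oas1a), chr3:142559969-142560043 plus (Gbp3) and chr8:71537557-71537632 minus (Bst2). Overlapping matches are written as 1 run of capitals, and in Ifit1, Ifit3 and Gbp3 the elements read on the opposite strand. The ubiquitin-like modifier gene Isg15 stood at 91.6, 4.25 and 0.913 RPKM, with intervals of 16.7 to 28.3 and 69.7 to 150. The antiviral genes Ifit1 and Ifit3 stood at 9.01, 0.713 and 0.269 and at 21.2, 2.26 and 0.955, the 2-5A synthetase gene Oas1a at 22.99, 0.279 and 0.0632, and the virus tether Bst2 at 593, 41.5 and 26.5. These 5 were chosen as lower in both, so their direction follows from that choice. In brain NSC the highest of the 5 was Bst2 at 5.49 RPKM, below its level in both converted libraries.

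The signal transducers of the pathway were lower by less. Stat2 stood at 40.9, 10.7 and 11.6 RPKM and Irf9 at 29.3, 9.36 and 10.0. Ifitm3, which blocks virus entry and is abundant in many mesenchymal cells, stood at 1415, 255 and 28.2, with intervals of 5.37 to 5.76 and 46.8 to 53.9. The 2 genes that were not lower in both were Ifit2 at 7.75, 3.21 and 3.92 and Gbp3 at 8.08, 2.65 and 11.1. The summed level of all 35 listed genes was 4187 RPKM in MEF, 830 and 262 in the converted libraries, beside the myeloid sums given above, whose part in it was not tested.

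Antigen presentation was lower in 13 of 17 genes and higher in 0. B2m, the shared light chain of class I molecules, stood at 2822, 344 and 259 RPKM, with intervals of 7.98 to 8.43 and 10.7 to 11.1. The class I heavy chain genes H2-D1 and H2-K1 stood at 427, 23.9 and 11.9 and at 262, 78.3 and 56.2, and the H2 genes share sequence and carry different alleles between strains, so their reads may be assigned unevenly. The immunoproteasome gene Psmb8 stood at 52.9, 4.48 and 0.486. Of 25 cytokine and chemokine genes, 20 were lower in both and 0 higher. Cxcl12, a chemokine of stromal cells, stood at 198, 4.45 and 1.31, the acute phase gene Saa3 at 972, 0 and 0.712, and the inflammatory gene Ptx3 at 354, 2.25 and 0.740. Il6 had 5.92 RPKM in MEF and no read in the converted libraries.

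The lists for other cell types were counted to show what each library held. All 29 myeloid genes were at least 4-fold lower in both converted libraries. Lyz2, the lysozyme of macrophages, stood at 2098, 9.06 and 0.150 RPKM, with intervals of 180 to 288 and 4216 to 59745, and the macrophage receptor gene Csf1r at 68.5, 2.78 and 2.42. S100a8 and S100a9, calcium-binding proteins of neutrophils, stood at 768, 0.108 and 0 and at 761, 0.434 and 0. The leukocyte genes Cd52 and Itgam, at 115 and 47.4 RPKM in MEF, had no read in either converted library. In the Tomato-negative library 12 of the 30 listed genes were at 0, and in the Tomato-positive library 3.

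All 17 skeletal and cardiac muscle genes were lower in both, with the troponin gene Tnnt2 at 48.9, 0.627 and 0.134 RPKM and the muscle regulator Myog at 20.7, 0.107 and 0.0319. An exception in size was Myh8, the perinatal myosin, at 140, 2.66 and 39.7, with intervals of 47.5 to 58.0 and 3.44 to 3.58. Its cluster neighbours Myh1, Myh2 and Myh4 stood at 195.5, 3.07 and 27.6, at 115, 0.935 and 9.48 and at 194, 4.01 and 42.4, so the adult and perinatal myosin genes kept a level in the Tomato-negative library that the other muscle genes did not. These genes are similar in sequence and their reads may be shared.

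Of 9 tested pericyte genes 6 were lower, of 9 adipogenic genes 6, of 12 neural crest and Schwann cell genes 4, and of 8 endothelial genes 3. The crest and glial endothelin receptor gene Ednrb was the only higher one among these 4 lists, at 11.9, 44.2 and 232 RPKM. Emcn, an endothelial sialomucin, stood at 0.433, 13 and 0.626, and Vtn, of pericytes and liver, at 2.68, 26.9 and 6.05. The summed endothelial level was 60.4, 47.8 and 25.3.

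**Figure D3:**
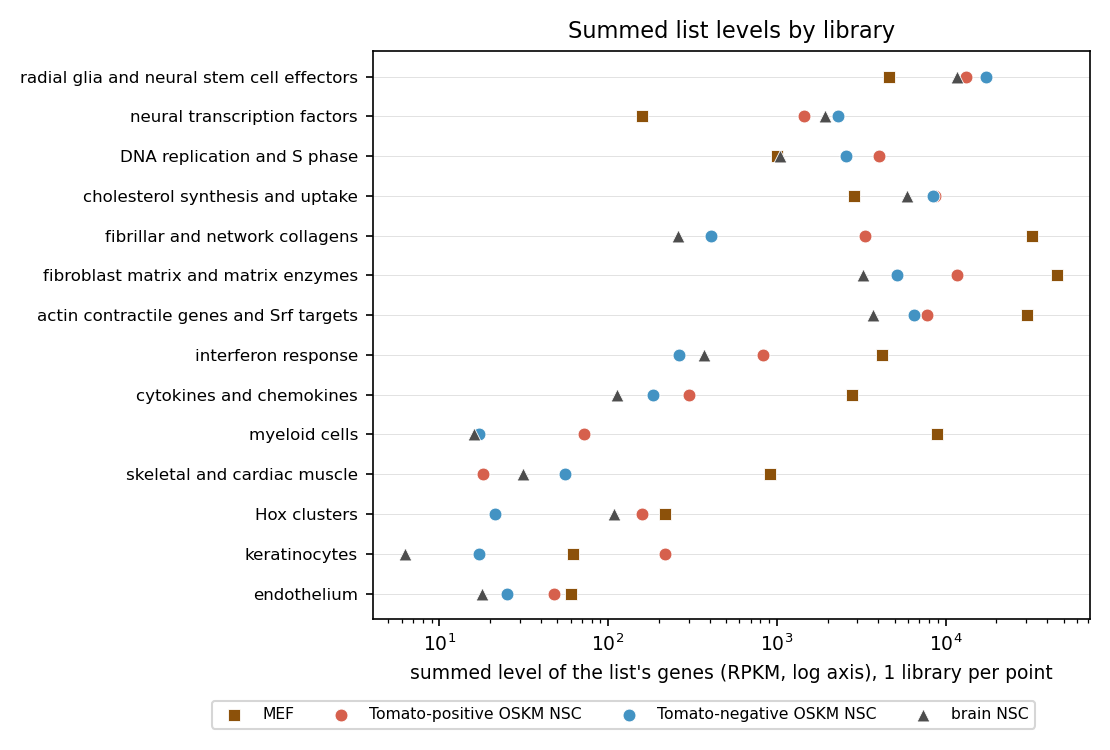
Summed RPKM of the listed genes (log axis) for 14 lists in MEF, Tomato-positive OSKM NSC, Tomato-negative OSKM NSC and brain NSC. The myeloid sum is 8934.5 in MEF against 72.0 and 17.2 in the converted libraries and 16.1 in brain NSC, and the collagen sum of the Tomato-positive library (3309) lies between MEF (32596) and the Tomato-negative library (407).

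Imprinted genes, expressed from 1 parental allele and many of them regulators of fetal growth, differed in both directions: 13 of 28 were lower in both and 9 higher. The pair H19 (chr7:142575529-142578143) and Igf2 (chr7:142650766-142666816), which share an imprinting control region, stood at 18104, 471 and 76.5 RPKM and at 3008, 98.8 and 13.55. Intervals for Igf2 were 29.3 to 30.6 and 209 to 226, and that for H19 against the Tomato-negative library was 226 to 237. The maternally expressed RNAs Meg3 and Rian of the Dlk1 domain stood at 369, 3.98 and 4.61 and at 179, 5.15 and 2.36.

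Among the higher imprinted genes, Peg12 stood at 6.21, 73.8 and 111 RPKM, with intervals of 11.0 to 12.9 and 16.6 to 19.3 and Peg10 at 15.8, 108 and 226. Mest stood at 469, 1553 and 1522 against 142 in brain NSC. Brain NSC had Peg12 at 9.62 RPKM. Among the lower ones, Plagl1 stood at 271, 12.6 and 4.71 and Peg3 at 177, 52.9 and 44.3. Allelic expression was not measured.

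Hox genes, which give position along the body axis, told the libraries apart. Of 32 tested, 13 were lower in both converted libraries and 1 higher, while beside the 6 genes past 4-fold in both, 17 were 4-fold lower in the Tomato-negative library only. The anterior gene Hoxa2 was the higher one, at 5.40, 23.4 and 12.3 RPKM. Over all 39 Hox genes the summed level was 217 RPKM in MEF, 158 in the Tomato-positive and 21.4 in the Tomato-negative library, and 109 in brain NSC. Paralogues 1 to 4 summed to 62.2, 77.0 and 20.4, paralogues 5 to 9 to 106, 75.2 and 0.949, and the posterior paralogues 10 to 13 to 49.1, 5.81 and 0. In the Tomato-negative library the level was thus almost wholly that of the first 4 paralogue groups.

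By cluster, HoxA summed to 70.2, 69.3 and 19.1 RPKM and HoxB to 58.0, 66.6 and 1.69, while HoxC stood at 55.2, 14 and 0.169 and HoxD at 33.5, 8.15 and 0.428. The Tomato-positive library therefore differed from MEF mainly in HoxC, HoxD and the posterior genes. Hoxd13, of the distal limb and genital tubercle, stood at 8.58, 0.127 and 0, Hoxa10 at 11.5, 3.50 and 0, and Hoxb9 at 8.30, 9.98 and 0. Against 3 reads in the Tomato-negative library, MEF was at least 298-fold higher for Hoxd13, 505-fold for Hoxa10 and 299-fold for Hoxb9. Brain NSC had Hoxb9 at 15.1 RPKM and no Hoxd13 read.

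**Figure D4:**
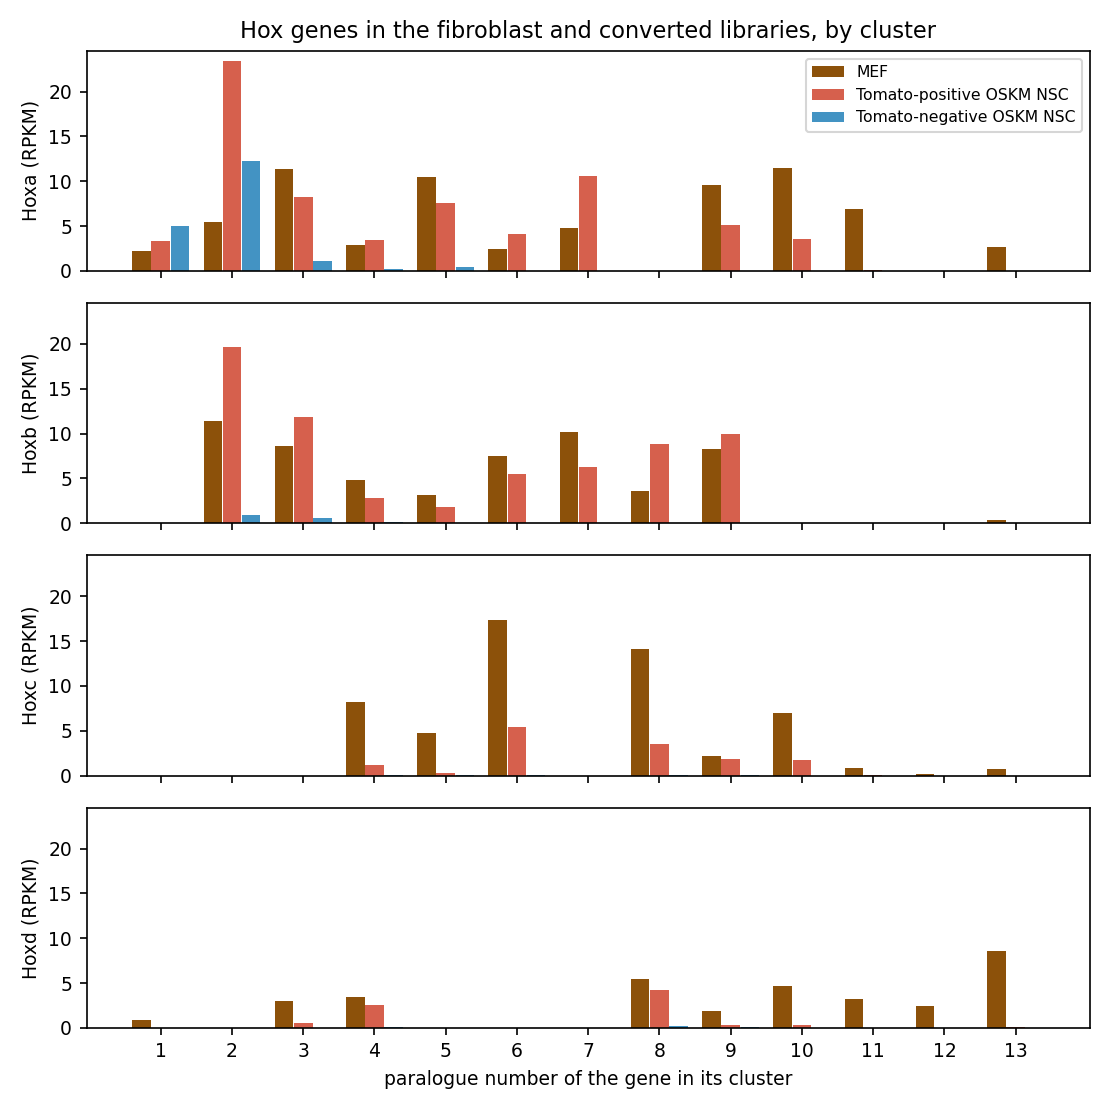
Level of each Hox gene (vertical axis, RPKM) by cluster and paralogue number in MEF, Tomato-positive OSKM NSC and Tomato-negative OSKM NSC. The Tomato-negative bars stand mainly in the first paralogues of HoxA, with Hoxa2 at 12.3 RPKM, and the Tomato-positive bars of HoxB lie above those of MEF for some genes (Hoxb9) and below for others (Hoxb7, at 6.32 against 10.2 RPKM).

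A set of 39 genes was past 2-fold in opposite directions against MEF, 32 of them higher in the Tomato-positive and 7 in the Tomato-negative library. Krt5 (chr15:101707070-101712898), the keratin of basal epithelium, was the 1 gene past 4-fold both ways, at 5.11, 75.8 and 0 RPKM, with an interval of 14.7 to 18.1 against MEF in the Tomato-positive library. It stood next to other type II keratin genes with the same order. Krt1 stood at 0.181, 40.5 and 0.155 and, chosen after their values were seen, Krt6a at 1.57, 127 and 0.201 and Krt6b at 1.15, 134 and 0.0852. Keratin genes resemble each other: Krt71 and Krt72, at 56.8 and 63.1 RPKM in the Tomato-positive library and no read in the Tomato-negative one, had the same 2096 reads there. Their separate levels therefore cannot be told apart.

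All 9 keratinocyte genes were higher in the Tomato-positive than in the Tomato-negative library, with Krt14 at 25.8, 38.5 and 1.85 RPKM and Krt15 at 0.261, 7.77 and 0.182, and only Krt10 and Lor passed 2-fold in both. The summed level of all 13 listed keratinocyte genes was 62.4 RPKM in MEF, 217.5 in the Tomato-positive, 17.2 in the Tomato-negative library and 6.29 in brain NSC. Simple epithelial keratins stood in the same order, with Krt8 at 8.52, 57.8 and 3.05. Epcam, an epithelial surface protein, stood at 3.94, 4.08 and 2.21. Besides keratins, the kinase gene Stk26 stood at 10.0, 45.0 and 1.88 and the G protein subunit gene Gng11 at 24.1, 82.0 and 3.24. The vomeronasal receptor genes Vmn2r5 and Vmn2r6 also belong to this group, but each had 344, 640 and 60 reads in the 3 libraries, so these are the same reads counted at both copies.

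Genes higher in the Tomato-negative but lower in the Tomato-positive library were fewer. Cd93, a C-type lectin-like receptor, stood at 16.8, 5.43 and 110 RPKM, with an interval of 6.36 to 6.76 in the Tomato-negative library. Selenop, the selenium transport protein, stood at 162, 62.0 and 390 (brain NSC 318), the calcium channel subunit gene Cacna2d3 at 3.44, 0.984 and 20.1, and the integrin gene Itga4 at 13.1, 4.33 and 28.3. The Tomato label, the subclone and the library cannot be told apart in this gap.

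**Figure D5:**
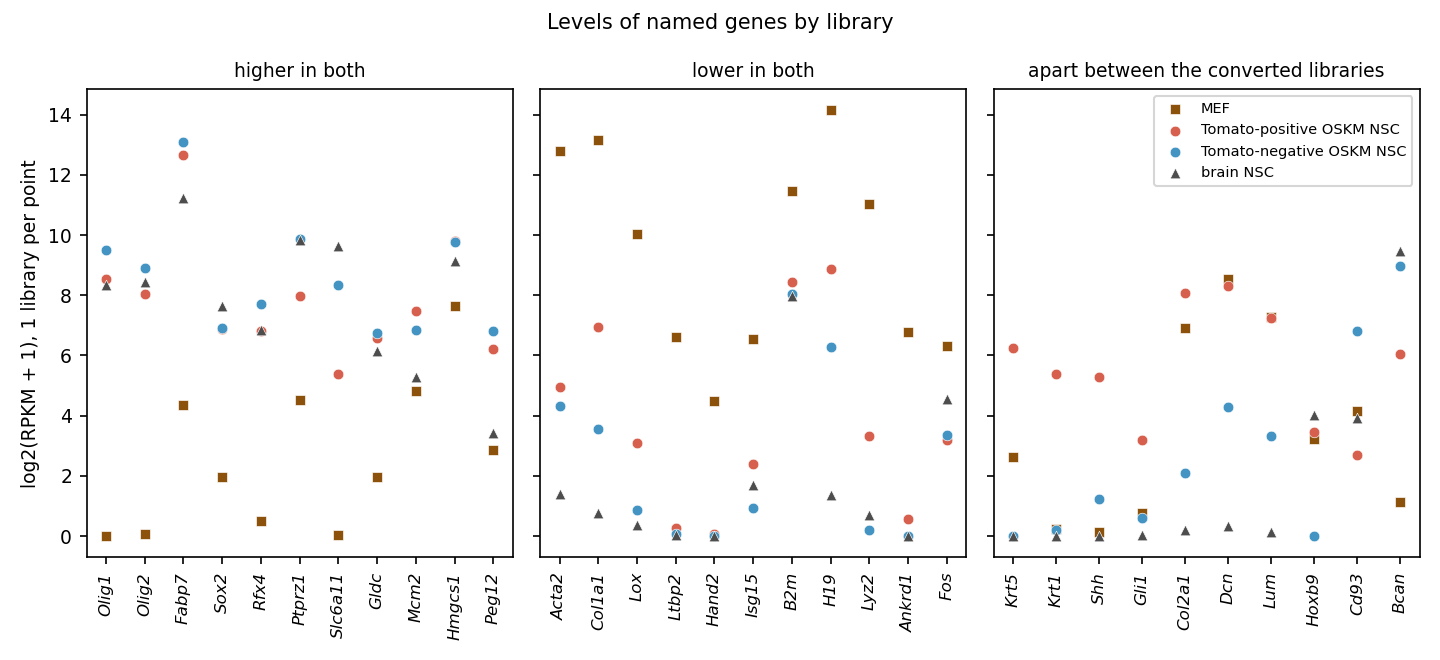
Level of 32 named genes, as log2 of RPKM plus 1 (vertical axis), in MEF, both converted libraries and brain NSC, in panels of genes higher in both, lower in both and apart between the converted libraries. Olig1 and Fabp7 sit high for the converted libraries and Acta2 and H19 for MEF, and Krt5, at 75.8 RPKM in the Tomato-positive library, lies at 0 in the Tomato-negative one.

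Lipid-binding proteins showed an exchange of members. Of 8 tested genes of the Fabp and retinoid-binding family, Fabp7 was higher and 4 were lower, with Fabp4, of fat cells and macrophages, at 121, 1.73 and 0.0797 RPKM and the retinoic acid-binding protein genes Crabp1 and Crabp2 at 848, 109 and 3.56 and at 75.8, 8.99 and 0.767. Fabp5 stood at 794, 609 and 481. Immediate early genes, which respond to serum and handling, were lower in 6 of 17 and higher in 2. Fos stood at 79.4, 8.11 and 9.19, with intervals of 8.75 to 11.0 and 8.03 to 9.29, and Jun at 32.7, 48.6 and 40.9.

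Of 30 pluripotency genes 11 reached 2 RPKM in any of the 3 libraries, 3 were higher in both and 4 lower. Nanog stood at 0.795, 5.27 and 1.37 RPKM. Pou5f1 stood at 1.09, 3.13 and 1.32 and Klf4 at 15.1, 3.52 and 4.97, and both values can include the transgene. Myc, which can include it too, stood at 21.1, 90.5 and 68.5, with intervals of 4.11 to 4.56 and 3.10 to 3.42. The nuclear factor Sall1, shared by pluripotent and neural stem cells, was higher at 1.58, 25.7 and 40.8, with intervals of 15.4 to 20.1 and 25.3 to 32.6. Of 9 sex-linked genes, the 4 Y-linked ones had no read in either converted library, with Ddx3y at 42.8 RPKM in MEF. The X-inactivation RNA Xist was measured at 4.56, 0.0140 and 0.0468 and at 447 in brain NSC.

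Genes higher and lower in both differed in length and in their promoters. Among the 634 higher genes 86.4% were protein coding, and these spanned a median of 45.6 kb, against 18.2 kb for the lower genes and 23.5 kb for all tested genes. RefSeq promoters were matched for 421 higher, 870 lower and 11045 tested genes. The median ratio of observed to expected CpG was 0.726 in the higher, 0.403 in the lower and 0.750 in all promoters, and 69.1%, 33.7% and 69.4% of them reached 0.6. With the 250 upstream bases alone the shares were 62.5%, 30.1% and 64.8%. So the promoters of the higher genes resembled the average in CpG content while those of the lower genes were poor in it. This is a description, and which lists of genes carry it was not tested.

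Single exons were examined for use that differs from that of their gene. For each of 103052 exons of 7329 protein-coding genes at 10 RPKM or more in all 3 libraries, an index gave the log2 ratio of exon to gene in a converted library minus that in MEF. An index of 3 or more in both pairs was found for 67 exons of 33 genes (0.065%) and of −3 or less for 26 exons of 6 genes (0.0252%). The 67 include 3 exons of Phldb2 and 1 of Gpx3 without a read in any of the 3 libraries. Their index came only from the gene level, which for Phldb2 was 147, 12.2 and 13.8 RPKM. In Mybph, Cd72, Zbtb12 and Glipr1 the gene's level in the converted libraries rested on exons shared with a neighbouring gene, and over unshared exons Mybph stood at 19.4, 0.0902 and 0.0816 RPKM. When the gene level was taken from unshared exons and 10 reads were asked of an exon, 52 exons of 25 genes remained. All of these had a positive index, and none of the 26 exons with an index of −3 or less was among them.

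Short exons were among those that remained. The largest index was that of a 45-base exon of Rtn2, a reticulon of the endoplasmic reticulum, at chr7:19286535-19286579. It stood at 0, 37.4 and 25.4 RPKM, from 0, 32 and 48 reads, while the gene stood at 86.7, 32.8 and 24.5. A 34-base exon of the signalling adaptor gene Eps8 (chr6:137588993-137589026) stood at 0, 35.6 and 70.0 with the gene at 18.9, 31.2 and 60.5. An exon of Dst, a cytoskeletal linker, stood at 0, 24.1 and 34.7 with the gene at 14.7, 13.97 and 24.5, and an exon of Smpdl3a at 0, 16.1 and 47.3 with the gene at 43.9, 23.8 and 55.4. In these 4 exons MEF had no read although the gene was well covered, so the exon and the gene differed in direction or size.

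Several genes had a block of such exons, 6 in Slc7a11, the cystine transporter, 5 in Oxr1, 4 each in Macf1, Mier1 and Rtn2, and 3 each in Limch1 and Gas2. The Slc7a11 exon at chr3:50417988-50418032 stood at 0.494, 35.1 and 158 RPKM with the gene at 27.9, 41.3 and 67.8. A Limch1 exon at chr5:66959588-66959618 stood at 3.58, 210.5 and 114, and a Macf1 exon at chr4:123512762-123512868 at 1.66, 30.5 and 77.0. Overlapping exon records of a gene share reads, as the 4 of Mier1 do, so these counts are not counts of separate events. One exon behaved unlike brain NSC: a 198-base exon of Eno1 (chr4:150246570-150246767) stood at 75.2, 2027 and 1346 against 2.43 in brain NSC, while the gene stood at 634, 754 and 500 and at 458 in brain NSC. Eno1 has near-identical copies elsewhere in the genome, and whether reads of a copy lie on this exon was not tested.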

How the data were processed

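RNA-seq of 7 mouse libraries, 1 per group, was deposited as 1 table of RPKM per Ensembl exon, made by the authors from TruSeq v2 libraries. CASAVA 1.8.2, Bowtie, TopHat2 2.0.10, bedtools and mm10 are named per the submitters' processing notes, with no role given. Of 279252 exons, 270168 (96.7%) matched GENCODE M21 by exon ID, and 9084 were left out. A gene's value was the exon-length-weighted mean RPKM, for 29686 genes (21474 protein coding). A total of 14816 exons share a base with another gene, strand was not used, and near-identical copies can count the same reads.

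Depth in whole megareads was inferred from the value steps. At that depth 96.3% to 96.5% of values under 5000 reads were whole, within 0.01 read plus 1e-05 of the value. Intervals of read ratios (95%, exact) use exons with whole reads and are printed only where they contain the RPKM ratio. A value of 0 allows 3 reads.

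Ratios are log2 with 1 RPKM added. Called genes are 4-fold, list members 2-fold, in both pairs. The members and the 48 lists (1205 genes, 1200 matched, 1083 tested) were chosen with earlier results of these data known. The named genes are the 12 highest and 12 lowest protein-coding named genes by the smaller ratio, members of the lists, genes past 2-fold in opposite directions (6 each way with the largest smaller absolute ratio), the 8 genes with the largest smaller absolute exon index, and genes of runs of neighbours. Genes at the border of the 4-fold rule, exon genes beyond those 8 and keratin and prolactin genes outside the lists were chosen with their values in view.

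Exons of 30 bases or more that share no base with another gene entered the exon index. Promoters and their sequences are RefSeq's (GRCm38.p6). On simulated data with counting noise only, drawn for 29686 genes with 50 at each fold, the 4-fold rule counted 96% of genes made 8-fold different and 100% of those made 16-fold different. It counted 6% of those placed on the 4-fold border, 0% of those made 2-fold different and 0% of 29486 unchanged genes. The changed genes were drawn only from genes whose MEF level lay clear above the 2 RPKM floor. Genes near or below that floor in MEF were not simulated as changed, so these shares do not hold for them. The unchanged genes included genes below the floor, which the rule cannot count. Alternatives were scaling, pseudocount, floor, exon choice, each library alone and counting intervals. Python 3.11.15, pandas 2.3.3, numpy 2.4.6, scipy 1.17.1 and matplotlib 3.10.9 were used. Some genes of the lists are counted but not reported by name here.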

Additional observations from a re-analysis of the deposited data

How the results depend on the processing

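No paired analysis was possible because each group has 1 library. The 634 higher genes were 968 with a pseudocount of 0.25, 297 with 4, 1030 by the highest exon, 1032 in the Tomato-positive and 1158 in the Tomato-negative library alone. The 1274 lower genes were 752 with a pseudocount of 4 and 1951 in the Tomato-negative library alone. The 39 genes in opposite directions were 85 and 12 with pseudocounts of 0.25 and 4 and 96 by the highest exon. The 37 runs of neighbours were 16 with a pseudocount of 4 and 24 over protein-coding genes. The 93 exons were 212 and 24 with pseudocounts of 0.25 and 4, 53 with a gene floor of 20 RPKM, and 468 and 19 at an index of 2 and 4. The other 50 values of these results stayed within 1.5 times.

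In 4 lists the balance of directions reversed. Brain regional factors had 2 higher and 3 lower with median-of-ratios scaling, and keratinocyte genes had 2 higher and 4 lower in the Tomato-negative library alone. The Tomato-positive library alone gave 4 lower and 5 higher for both the G1 and p53 list and pluripotency, as did the highest exon for pluripotency. Other list counts moved by over 1.5 times. With a pseudocount of 4, higher genes were 4 of the neuron list, 1 of the regional factors, 1 of the hedgehog list, 5 of the mitosis list and 0 of the keratinocyte list, and lower genes were 8 of the Hox list, 3 of the pericytes, 1 of the endothelium and 1 of the neural crest list. A floor of 8 RPKM gave 4 neuron, 2 regional and 0 keratinocyte genes higher and 5 Hox, 3 pericyte, 1 endothelial and 1 neural crest genes lower. Median-of-ratios scaling gave 2 respiratory chain, 3 mitosis and 1 keratinocyte genes higher and 7 neural crest genes lower. The highest exon gave 7 regional and 4 mitosis genes higher, and unshared exons 1 Notch target. The Tomato-positive library alone gave 6 hedgehog, 9 cadherin, 10 respiratory chain, 16 mitosis and 5 keratinocyte genes higher, and the Tomato-negative library alone 30 Hox and 5 endothelial genes lower and 6 G1 and p53 genes higher with 7 lower. Of 672 named or listed genes called, 0 reversed under either scaling, by the highest exon or over unshared exons. A pseudocount, a floor or a restriction to protein-coding genes cannot change the sign of a ratio, so they could not reverse a call. The calls lost were 102 with a pseudocount of 4, 53 with median-of-ratios scaling, 27 by the highest exon, 19 with equal totals and 4 over unshared exons. Depth limits the Tomato-positive library most: 3 reads on 1 kb of exon are 0.158 RPKM there, against 0.0667 in MEF. The cause of the moved values was not tested.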

Other observations

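Genes called in the same direction also lay side by side. Runs of 4 or more consecutive tested genes, all 4-fold different in both pairs in 1 direction, numbered 31 on the lower side (191 genes) and 6 on the higher side (26 genes). Many of the lower runs were families of immune genes. On chromosome 16 a run of 15 genes held the stefin A family, with Stfa2 at 197 RPKM and Stfa3 at 94.5 in MEF and no read in either converted library. On chromosome 12 a run of 14 Serpina3 genes, protease inhibitors of the acute phase, held Serpina3n at 222 RPKM in MEF, 3.72 in the Tomato-positive and 4.51 in the Tomato-negative library. A run of 5 complement genes on chromosome 6 held C1s1 at 362, 6.67 and 5.22 RPKM, and a run of 6 on chromosome 11 held the chemokine gene Ccl6 at 136, 0.0731 and 0.265. Near-identical copies in such families can count the same reads, so the number of genes in a run is an upper limit of separate signals.

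The imprinted end of chromosome 7 gave a run of 8 genes from H19 to Tspan32 in which neighbours of different tissues were lower together. Ins2 stood at 195 RPKM in MEF with no read in either converted library, the tyrosine hydroxylase gene Th at 170, 0.318 and 0.0240, and the trophoblast factor gene Ascl2 at 52.6, 0.0870 and 0.109. On the higher side the longest runs had 5 genes. The acyl-CoA thioesterase cluster on chromosome 12 held Acot3 at 0.215, 26.9 and 34.5 RPKM and Acot4 at 0.276, 12.4 and 15.9, with 46.5 and 21.4 in brain NSC, and a run of 4 on chromosome 6 held the lectin gene Clec2g at 0.0792, 10.2 and 12.9. By chromosome, 14.4% of the 668 tested genes of chromosome 14 were lower in both, against 7.66% of all tested genes, and runs of unnamed gene models such as Gm3002 (40.7, 4.53 and 4.87 RPKM) were among them. Strain differs between the libraries, and its part in these runs was not tested.

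The prolactin family genes Prl2c2 and Prl2c3 on chromosome 13, chosen after their values were seen, stood at 0.317, 83.2 and 0.722 and at 0.828, 76.7 and 0.507 RPKM in MEF, the Tomato-positive and the Tomato-negative library.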
